A study of Homo sapiens with 2 samples.

Results

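Intraflagellar transport and BBSome genes encode the protein trains that carry cargo into and out of the cilium, and 36 of them were followed in CL1-0 cells at 6 h and at 0 h of treatment with an FSTL1 antibody. The genes were taken by name, as subunits of the IFT-B and IFT-A complexes, of the dynein-2 motor and of the BBSome with its assembly factors and GTPases. Their probe sets were those that the platform annotation assigns to 1 of these genes and to no other. Of the 36 genes, 35 had such a probe set, 79 probe sets in all, out of 19777 genes and 41097 single-gene probe sets on the array. The set was chosen by the value of IFT46, the lowest difference between the arrays, and its complexes were then filled in by name. The values below therefore describe these arrays, and nothing is tested on them.

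CL1-0 is an established human lung adenocarcinoma line, labelled as alveolar type II in cell type. The cells at 6 h and the cells at 0 h were the same line under the same FSTL1 antibody label, and both were puromycin-selected, stably transduced cells, with no vector named. There was 1 array for 6 h and 1 for 0 h, so no difference here has a replicate check or a significance test. Cells kept for 6 h without the antibody were not analysed here, and the antibody cannot be told apart from time in culture.

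Cilia are built and maintained by trains of IFT-B and IFT-A particles that move along the axoneme. Kinesin-2 carries IFT-B with its cargo towards the tip, and dynein-2, with IFT-A, returns the particles to the base. The BBSome is a coat of Bardet-Biedl syndrome proteins that rides on these trains and takes membrane receptors out of the cilium. Non-motile primary cilia are found on many epithelial cells, and the multiciliated cells of the airway use the same transport machinery.

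The measurement is the probe set intensity, on a linear scale, as deposited. Across the whole array the median was 44.9 at 6 h, against 45.8 at 0 h. A floor was set at the median of the pooled values, an intensity of 45.4, as an assumed background. A gene was called measured when 1 of its probe sets exceeded the floor at 6 h or at 0 h, and 12669 genes were. Differences are log2 values at 6 h minus those at 0 h, taken on the probe set with the highest mean, and over all measured genes their median was 0.02 with an SD across genes of 0.19.

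IFT46, a subunit of the IFT-B core that joins IFT52 and TTC26 in the particle, had an intensity of 51.8 at 6 h and 123.7 at 0 h, a log2 difference of -1.25. This is a 2.39-fold lower value at 6 h. It rests on a single probe set, and its 6 h value lies just above the floor of 45.4. That probe set ends in _s_at, which on these arrays marks probes that match several transcripts. Of all measured genes 0.182% were at least 1.5-fold lower (23 genes), and 0.00789% at least 2-fold lower, which is IFT46 itself. Among the 2051 genes whose mean log2 intensity lay within 0.5 of that of IFT46, the SD of the difference was 0.25, larger than over all genes. In that band 15 genes, or 0.731%, were at least 1.5-fold lower, and the lowest difference after IFT46 was -0.99. With the floor at the 60th percentile, an intensity of 72.5, the IFT46 difference was -0.77.

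IFT46 lies on chromosome 11 of GRCh38.p14, between positions 118544543 and 118576898. Its span overlaps that of TMEM25 (118531192 to 118547286) on one side and that of ARCN1 (118572409 to 118603033), a coatomer subunit gene, on the other. ARCN1 had 1368 at 6 h and 1275 at 0 h, a log2 difference of 0.10. TMEM25 had 96.9 at 6 h and 105.6 at 0 h, a difference of -0.12. IFT46 was chosen as the lowest difference of all measured genes, so no overlapping gene could be as low. KMT2A, the histone methyltransferase gene within 50000 bases, had 442.3 at 6 h and 354.8 at 0 h, a difference of 0.32. The measured sets of KMT2A ran from -0.07 to 0.40. TTC36 and PHLDB1, the other protein-coding genes in that window with probe sets, were below the floor on both arrays.

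**Figure D1:**
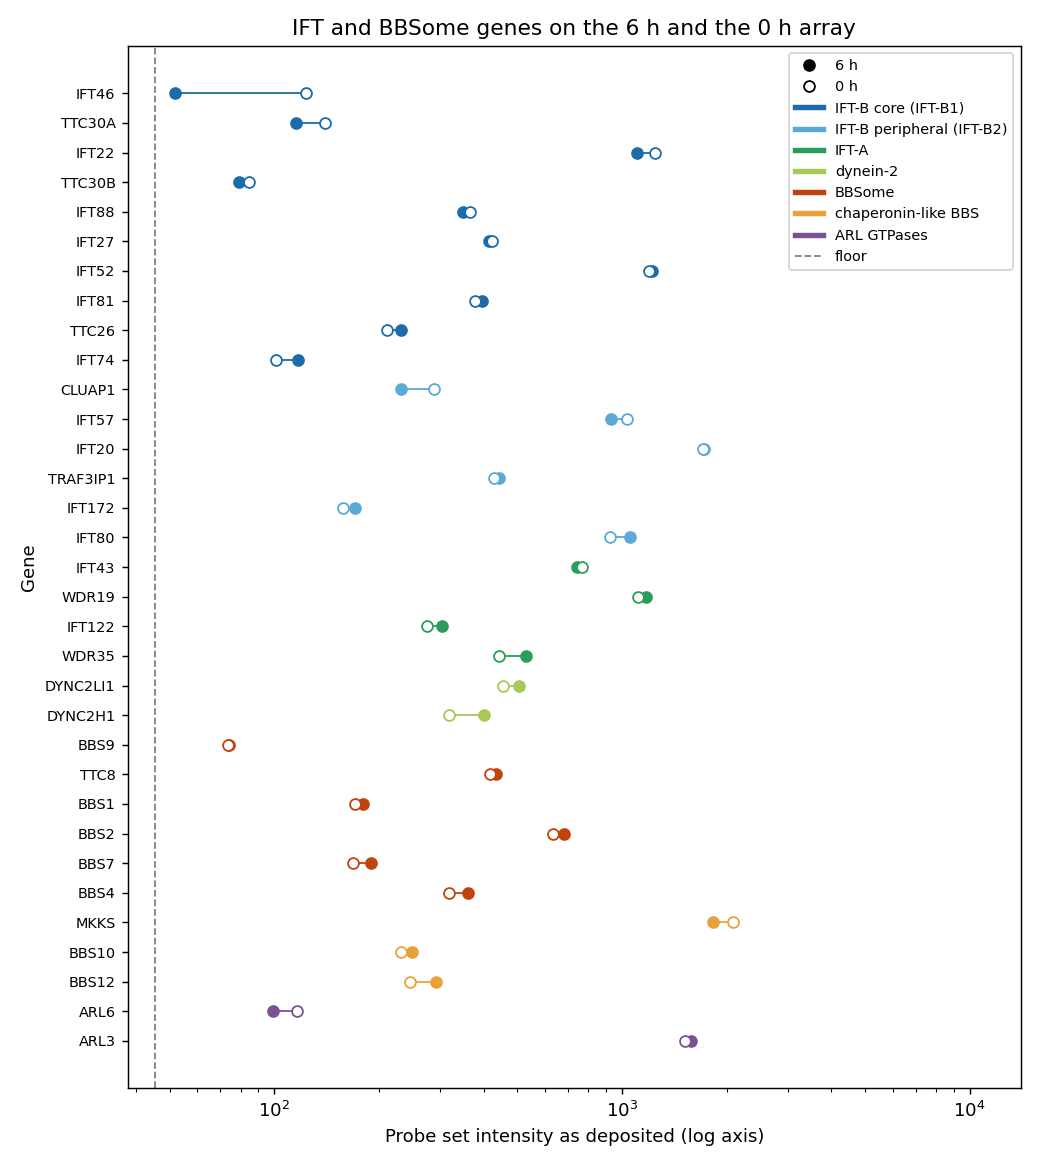
Intensity of the 33 measured genes on the 6 h array (filled) and the 0 h array (open), on a log axis, 1 line per gene and 1 array per time, coloured by complex. IFT46 is the gene whose 2 points are far apart (51.8 at 6 h and 123.7 at 0 h). Levels of different probe sets are not comparable with each other, so positions along the axis do not rank genes.

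Within the IFT-B core 5 of the 9 other genes were lower at 6 h by any amount (55.6%), against 45.7% of all measured genes. At least 1.5-fold lower were 0 of the 9, where 0.182% of all measured genes were. IFT46 was chosen as the lowest of all genes, so the others could not match its value. IFT52, which holds the core together and binds IFT46 directly, had 1216 at 6 h and 1199 at 0 h, a log2 difference of 0.02, and its second probe set had one of 0.04. IFT88, a tetratricopeptide protein known from polycystic kidney mice, had 349.2 at 6 h and 365.8 at 0 h, a difference of -0.07. Both values for each gene were close together, and the same was true of the pair that binds tubulin. IFT81 had 396.5 at 6 h and 378.0 at 0 h (0.07), and IFT74 had 116.8 at 6 h and 101.2 at 0 h (0.21).

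The remaining core genes had small differences, and for several the probe sets disagreed. TTC26, also called IFT56 and a direct partner of IFT46, had 231.8 at 6 h and 210.3 at 0 h, a log2 difference of 0.14. Its other 2 measured probe sets were lower at 6 h, at -0.24 and -0.26, so its direction is not settled. TTC30A and TTC30B encode close paralogs, IFT70A and IFT70B, which their probes cannot be assumed to separate. TTC30A had 115.6 at 6 h and 139.4 at 0 h, a difference of -0.27. TTC30B had 79.2 at 6 h and 84.7 at 0 h, a difference of -0.10, with a second set at -0.20. All 3 probe sets of the pair were therefore lower at 6 h. The small GTPase IFT22 had 1107 at 6 h and 1244 at 0 h (-0.17), but its second probe set was at 0.44. The Rab-like GTPase IFT27, through which the BBSome is linked to the train, had 414.2 at 6 h and 423.5 at 0 h (-0.03), with a second set at 0.48.

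Of the 6 peripheral IFT-B genes, which attach kinesin-2 and cargo, 4 were higher and 2 lower at 6 h. Among all measured genes 54.3% were higher. IFT20 turned lower (-0.02) under all 3 other scalings tried, which were median centring, quantile normalization and loess. CLUAP1, also called IFT38, had 230.9 at 6 h and 287.0 at 0 h, a log2 difference of -0.31, with a second set at -0.11. This was the lowest difference after IFT46. IFT57 had 931.5 at 6 h and 1032 at 0 h (-0.15), with a second set at -0.23. Both genes were thus lower on each of their measured probe sets. IFT20, which also sorts cargo at the Golgi, had 1718 at 6 h and 1714 at 0 h (0.003). TRAF3IP1, the microtubule-binding IFT54, had 444.0 at 6 h and 427.5 at 0 h (0.05), with a second set at -0.20. IFT172, needed where trains turn round at the ciliary tip, had 170.9 at 6 h and 157.2 at 0 h (0.12). IFT80 had 1055 at 6 h and 921.2 at 0 h (0.20), with a second set at 0.27. Over all 16 IFT-B genes the median was -0.01, with 8 higher and 8 lower, against 54.3% of all measured genes higher. IFT20 and IFT52 turned lower under each of the 3 other scalings. Without IFT46 the median of the other 15 was 0.003 and their range was -0.31 to 0.21. Without probe sets ending in _x_at or _s_at, which leaves IFT46 unmeasured, the IFT-B median was 0.05.

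**Figure D2:**
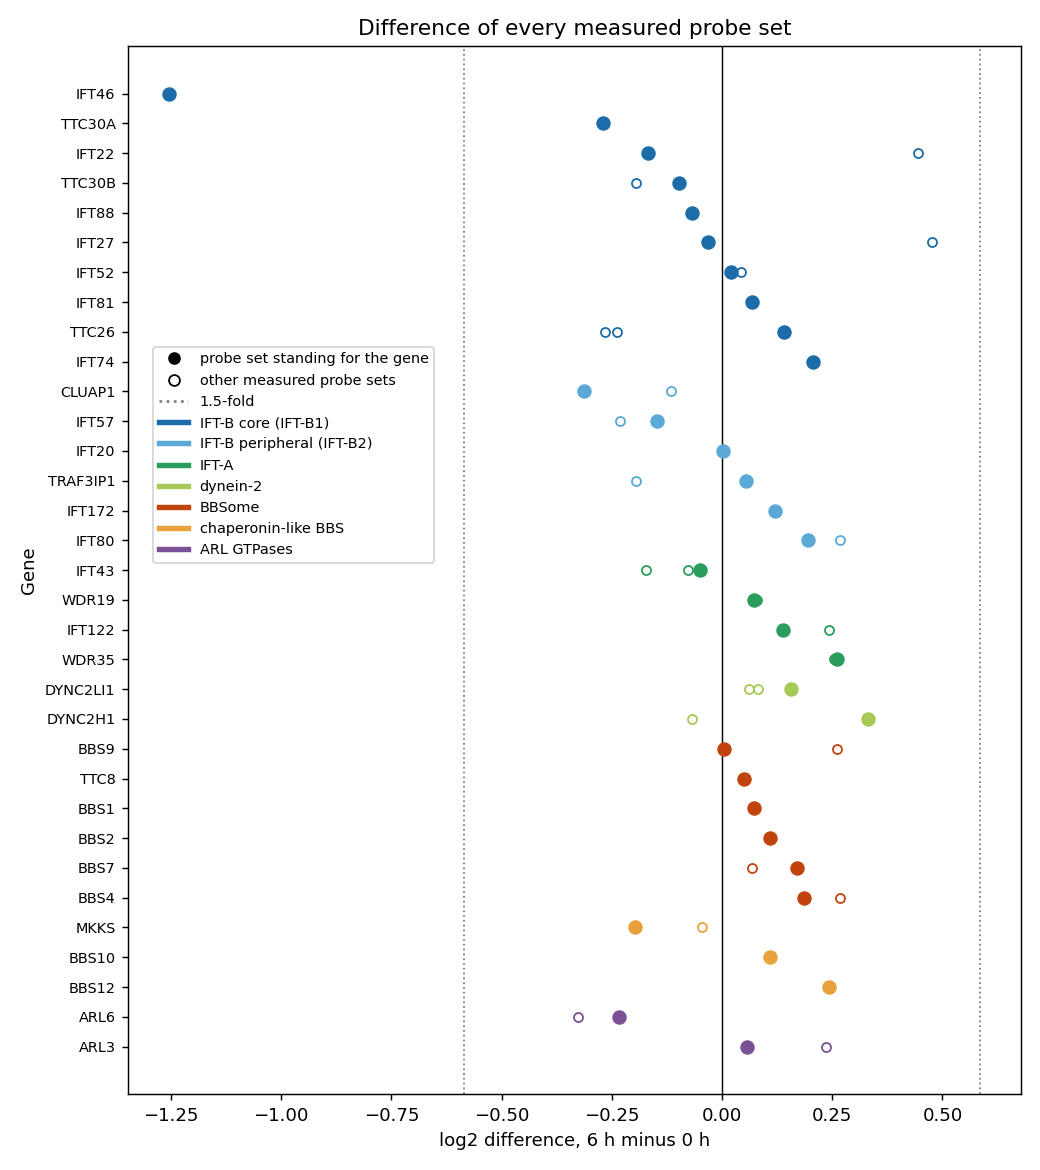
The log2 difference, 6 h minus 0 h, of each measured probe set of the 33 measured genes, 1 array per time. Filled points are the set that stands for the gene, open points its other measured sets, and dotted lines mark 1.5-fold. IFT46, at -1.25, is the 1 point beyond a dotted line, and the sets of IFT22, IFT27, TTC26, TRAF3IP1 and DYNC2H1 lie on both sides of 0.

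IFT-A and dynein-2, which serve the return to the base, differed little between the arrays. Higher values at 6 h were found for 5 of the 6 measured genes of both, against 54.3% of all measured genes, and the median log2 difference was 0.15. WDR35, also called IFT121, had 530.9 at 6 h and 443.2 at 0 h (0.26), with a second set at 0.25. IFT122 had 302.7 at 6 h and 275.0 at 0 h (0.14), with a second set at 0.24. WDR19, the IFT-A core subunit IFT144, had 1173 at 6 h and 1115 at 0 h (0.07). These 3 were higher on each of their measured sets. IFT43 was the exception, with 742.4 at 6 h and 768.3 at 0 h (-0.05) and its 3 sets between -0.17 and -0.05. DYNC2H1, the motor heavy chain, had 399.9 at 6 h and 317.6 at 0 h, a difference of 0.33 and the highest among the 33 measured IFT and BBSome genes, but its second set was at -0.07. The light intermediate chain gene DYNC2LI1 had 505.2 at 6 h and 453.4 at 0 h (0.16), with its 3 measured sets between 0.06 and 0.16.

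A pair of IFT-A genes gave no value. The 3 probe sets of IFT140 were below the floor on both arrays, at 27.0, 34.8 and 23.9 at 6 h and at 27.1, 40.9 and 29.9 at 0 h. The probe set for TTC21B, the peripheral subunit IFT139, is also assigned to a second gene and so names neither. The intensity of that set was 55.4 at 6 h and 44.9 at 0 h.

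All 6 measured BBSome subunits were higher at 6 h on the set that stands for the gene, between 0.003 and 0.19, although BBS9 turned to -0.02 after median centring and BBS9 and TTC8 to -0.001 and -0.0009 after quantile normalization. Of all measured genes 54.3% were higher by any amount. The subunit BBS4 had 361.6 at 6 h and 317.7 at 0 h (0.19), with a second set at 0.27. BBS7 had 189.6 at 6 h and 168.5 at 0 h (0.17), with a second set at 0.07. BBS2, part of the assembly core with BBS7 and BBS9, had 683.0 at 6 h and 632.9 at 0 h (0.11). BBS1, the subunit that binds ARL6, had 179.6 at 6 h and 170.7 at 0 h (0.07). The tetratricopeptide subunit TTC8, or BBS8, had 433.0 at 6 h and 418.0 at 0 h (0.05). BBS9 had 73.8 at 6 h and 73.7 at 0 h (0.003), with a second set at 0.26. BBS5 was below the floor, at 24.1 at 6 h and 29.4 at 0 h. Each of these gene-level differences is close to or under the scatter between probe sets of a gene given below.

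The chaperonin-like proteins help to assemble the BBSome. BBS12 had 291.0 at 6 h and 246.0 at 0 h (0.24), and BBS10 had 249.3 at 6 h and 231.3 at 0 h (0.11). MKKS, or BBS6, had 1823 at 6 h and 2089 at 0 h (-0.20), with a second set at -0.05. BBSome and chaperonin-like genes together had a median log2 difference of 0.11, between 0.05 and 0.11 over the other settings, with 8 of 9 higher as deposited, against 54.3% of all measured genes.

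The GTPases differed in direction. ARL6, which recruits the BBSome to membranes, had 98.8 at 6 h and 116.2 at 0 h, a difference of -0.23, and its second probe set was at -0.33. ARL3, which releases lipid-modified cargo inside the cilium, had 1583 at 6 h and 1521 at 0 h, a difference of 0.06, with a second set at 0.24. ARL6 was thus lower and ARL3 higher on both measured sets of each.

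Over the 33 measured genes the median log2 difference was 0.06, against 0.02 over all measured genes. At least 1.5-fold lower was 1 gene of 33, IFT46, and 0 were at least 1.5-fold higher, where 0.182% and 0.75% of all measured genes were. The rule used this contrast, so the count adds nothing on IFT46. By any amount 11 genes, or 33.3%, were lower at 6 h, against 45.7% of all measured genes. After quantile normalization 15 of 33 were lower (45.5%), against 53.4% of all genes. Without IFT46 the other 32 ran from -0.31 to 0.33 with an SD of 0.16, below the SD of 0.19 across all genes.

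**Figure D3:**
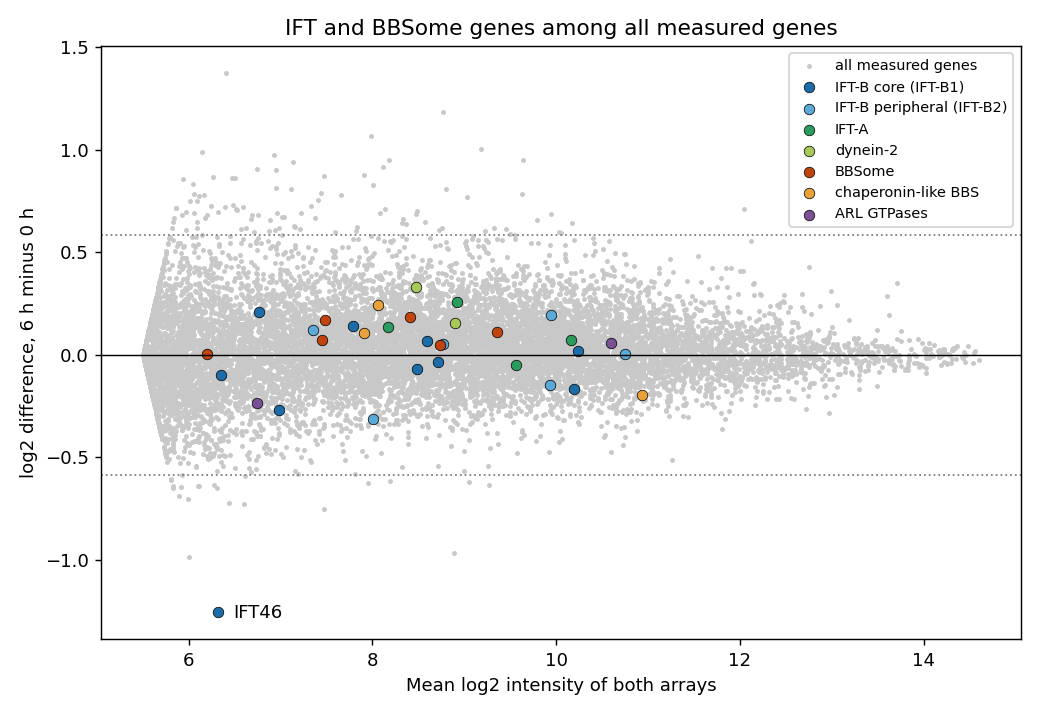
The log2 difference, 6 h minus 0 h, against the mean log2 intensity of both arrays for all 12669 measured genes (grey) and the 33 IFT and BBSome genes (coloured by complex), 1 array per time. IFT46 is the lowest point of all genes at -1.25, and the other coloured points lie within the grey cloud, between -0.31 and 0.33.

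How far such differences can be read is shown by genes with several probe sets. Of the genes described here, 21 had at least 2 measured sets, and the pooled SD between sets of a gene was 0.16 on the log2 scale. Over all 6122 such genes on the arrays it was also 0.16. The sets lay on opposite sides of 0 for 5 of the 21 genes, and for 48.7% of all genes with several sets. Sets of a gene share the RNA and the array, and are not replicates. Apart from IFT46, the size of the gene-level difference reached 0.33 at most, in DYNC2H1.

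IFT genes are known targets of the RFX transcription factors, which bind a near-palindromic X-box close to the start site. RefSeq promoter windows of GRCh38.p14, 250 bases before to 50 after a start, were found for 33 of the 36 genes. BBS9, IFT22 and WDR35 were not among them. The X-box was searched on both strands as GTNNCCNNNGNAAC, with 2 bases between its arms, and as GTNNCCNNGNAAC, with 1 base. The arm by itself was searched as GTTGCCA, which can be part of either. The promoter window of IFT46 is chr11:118565882-118566181 on the minus strand, and its start site lies inside the RefSeq span of the gene, which extends further upstream. It is shown because IFT46 is the gene with the large difference, and the capitals mark the arm.
IFT46: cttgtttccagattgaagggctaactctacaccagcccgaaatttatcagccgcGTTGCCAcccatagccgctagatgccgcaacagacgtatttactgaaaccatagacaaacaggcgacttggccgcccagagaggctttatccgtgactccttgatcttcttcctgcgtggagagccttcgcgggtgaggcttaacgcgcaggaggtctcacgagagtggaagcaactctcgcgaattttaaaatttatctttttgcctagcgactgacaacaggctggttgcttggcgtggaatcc

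The window of IFT46 held the arm, centred at position -193 relative to the start, and neither form of the full X-box. The form with 2 bases between the arms was found in 5 of 33 genes (15.2%), against 2.28% of all promoter windows and 3.56% of measured genes with a window. These sites, with the X-box in capitals and 8 bases on each side, are shown as the members of the set that hold it. They lie at chr2:177618719-177618748 on the minus strand (TTC30A), chr2:177552781-177552810 on the minus strand (TTC30B), chr3:97764726-97764755 on the plus strand (ARL6), chr3:108222433-108222462 on the plus strand (IFT57) and chr7:139133756-139133785 on the minus strand (TTC26).
TTC30A: gttgccctGTTGCCGTGGTAACcgcacgca
TTC30B: gttgctctGTTGCCATAGTAACcgcaccca
ARL6: aagctcctGTTGCCAAGGGAACggtgcctg
IFT57: gacaatccGTCACCAGGGAAACtagactcc
TTC26: cacgttctGTCTCCACGGTAACcccgcctg

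The sites of TTC30A and ARL6 match the motif on both strands. All 5 sites lie within 23 bases of a start site. Their genes had log2 differences from -0.27 (TTC30A) to 0.14 (TTC26), as given above. Of the 5, 4 were lower at 6 h, against 6 of 25 measured members with a window and no match, IFT46 among the 6. Over all measured genes 45.7% were lower. TTC30A and TTC30B are close paralogs, and no relation of the motif to the difference was tested. The arm was found in 10 of 33 genes (30.3%), against 4.08% of all windows and 5.08% of measured genes with a window. Its genes ran from -1.25 (IFT46) to 0.33 (DYNC2H1). Of the 10, 5 were lower, against 5 of 20 measured members with a window and no arm. Over all measured genes 45.7% were lower. IFT46 is among the 5 lower genes with the arm and was chosen for its low value, so it adds nothing to this count. The form with 1 base between the arms was found in IFT57 and IFT74 (6.06%), against 1.30% of all windows and 1.87% of measured genes with a window. The windows of the genes described here had a median G and C content of 60.3%, against 64.7% for windows of measured genes. A match of letters is not a bound site.

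Of 106 other genes of the cilium, 92 were measured. Of these, 0 were at least 1.5-fold lower and 0 at least 1.5-fold higher, where 0.182% and 0.75% of all measured genes were. The median log2 difference of the 92 was 0.04, with 56 higher and 36 lower, and 54.3% of all measured genes were higher. Among further subunits of the transport particles, 11 of 12 were measured, with a median of 0.007. The dynein light chain gene DYNLL2 had 1290 at 6 h and 1688 at 0 h (-0.39), with its 3 sets between -0.68 and -0.26. LZTFL1, a regulator of BBSome traffic, had 473.5 at 6 h and 393.9 at 0 h (0.27). DYNLT1, another dynein light chain gene, had 5538 at 6 h and 6265 at 0 h (-0.18). DYNLL2 and DYNLT1 serve dyneins outside the cilium too.

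Kinesin-2, the motor of IFT-B trains, had 5 measured genes, 3 higher and 2 lower, with a median of 0.03. Of all measured genes 54.3% were higher. KIF3A, a motor subunit, had 392.7 at 6 h and 310.4 at 0 h (0.34), with a second set at 0.002, and KIF3C had 237.5 at 6 h and 197.0 at 0 h (0.27). KIF17 had 75.8 at 6 h and 83.0 at 0 h (-0.13). The transition zone, the gate at the ciliary base, had 22 measured genes and a median of 0.0004. Of these 11 were higher, against the same 54.3%. CEP290, which bridges membrane and axoneme there, had 451.3 at 6 h and 366.1 at 0 h (0.30), with a second set at 0.01. ANKS6 and TMEM231 were at 0.21 and 0.19, but each also had a set that was lower, at -0.16 and -0.11. Genes of ciliary membrane cargo were split in the same way, 7 higher and 6 lower of 13, again against 54.3% higher, with a median of 0.0008. RP2, which acts on ARL3, was at 0.29, and TULP3, the IFT-A cargo adaptor, at 0.21. GPR161, a receptor of the ciliary membrane, was at -0.30 with its 6 h value of 46.2 next to the floor.

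Of the measured centriole and distal appendage genes 13 of 16 were higher, with a median of 0.12, where 54.3% of all measured genes were higher. CEP97 and CCP110 encode partners that cap the mother centriole and hold back cilium formation. CEP97 had 661.5 at 6 h and 447.5 at 0 h (0.56), with its 3 sets between 0.16 and 0.56, and CCP110 had 421.8 at 6 h and 354.0 at 0 h (0.25). SCLT1, a distal appendage protein, was at 0.23. Genes of cilium disassembly had a median of 0.13 over 6 measured, with 4 higher and 2 lower, against the same 54.3% higher. The largest differences were those of HDAC6 (0.21, with a second set at -0.06), PLK1 (0.15) and NEK2 (0.14).

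The Hedgehog pathway signals through the cilium, and 10 of its 12 listed genes were measured, with a median of 0.01. Of the 10, 6 were higher and 4 lower, where 54.3% of all measured genes were higher. The transcription factor GLI3 had 98.9 at 6 h and 133.6 at 0 h (-0.43), with a second set at 0.42. CDON and PTCH1, a co-receptor and the Hedgehog receptor, were each at 0.36, and PTCH1 had a second set at -0.23. GLI1, a target used as a readout of the pathway, was next to the floor at 6 h (45.8) and below it at 0 h (41.0). Among RFX and FOXJ1 factors 6 of 9 were higher, against 54.3% of all measured genes, with a median of 0.17. RFX7 had 1602 at 6 h and 1144 at 0 h (0.49), with a second set at 0.23. RFX3, the family member best known for ciliary genes, had 89.6 at 6 h and 69.1 at 0 h (0.37), with a second set at -0.09. RFX5, known for MHC class II genes, was at 0.35.

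**Figure D4:**
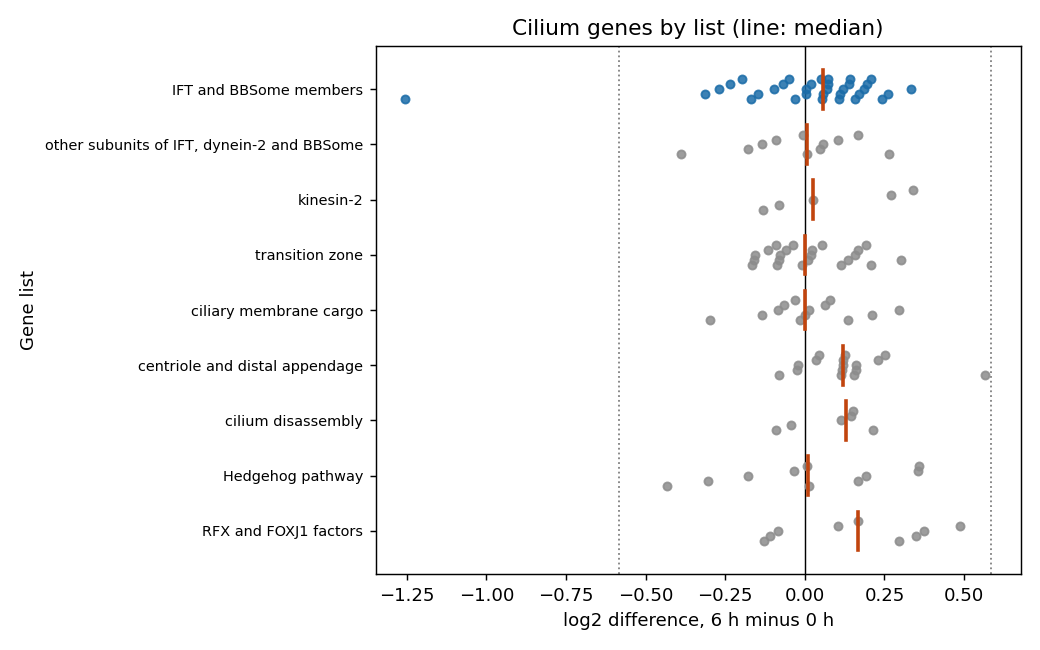
The log2 difference, 6 h minus 0 h, of each measured gene in the IFT and BBSome set (blue) and in 8 other lists of ciliary genes (grey), 1 point per gene and 1 array per time, with the median of each list as a line and 1.5-fold as dotted lines. IFT46 at -1.25 is the 1 gene beyond a dotted line, and the list medians lie between 0.0004 and 0.17.

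Markers of multiciliated cells, in which these genes are most used, were mostly below the floor. Of 16 with a probe set, 5 were above it at 6 h and 6 at 0 h, with summed intensities of 620.5 and 648.3. The master factor FOXJ1 was at 44.8 at 6 h and 49.0 at 0 h. The axonemal dynein genes DNAI1, DNAI2, DNAH5, DNAH9 and DNAH11 were below the floor on both arrays. RSPH1 (77.8 at 6 h and 77.0 at 0 h) and TEKT1 (61.0 and 61.4) were above it on both. So were CCNO (49.8 and 58.3), CCDC40 (49.2 and 50.9) and CAPS (47.1 and 49.9). Of the alveolar type II markers, 5 of 8 were above the floor on each array, with sums of 616.1 at 6 h and 556.3 at 0 h. Of all 19777 genes with a probe set of their own, 12669 exceeded the floor on either array. A count of 5 of 8 is therefore not particular to these markers. SFTPC, with 92.3 at 6 h and 113.3 at 0 h (-0.30), was the 1 of these that was lower at 6 h. The other 4 were higher, SFTPB (0.35), NKX2-1 (0.28), ABCA3 (0.26) and NAPSA (0.26). SFTPB and NKX2-1 also had a set that was lower, at -0.39 and -0.18, and SFTPC a set at 0.02. SFTPD, LAMP3 and SLC34A2 were below the floor on both arrays. Of 5 epithelial markers 2 were above the floor on each array, KRT8 and KRT18, and EPCAM, KRT19 and CDH1 were below it. Of 7 fibroblast markers 1 was above it at 6 h, COL1A1 (179.4, and 230.1 at 0 h), and 2 at 0 h, COL1A1 and DCN. That set of COL1A1 was at -0.36, but its second set was at 0.94. Of 4 leukocyte markers 0 were above it on either array. Whether the cells carried cilia was not tested, since transcript levels do not show it.

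**Figure D5:**
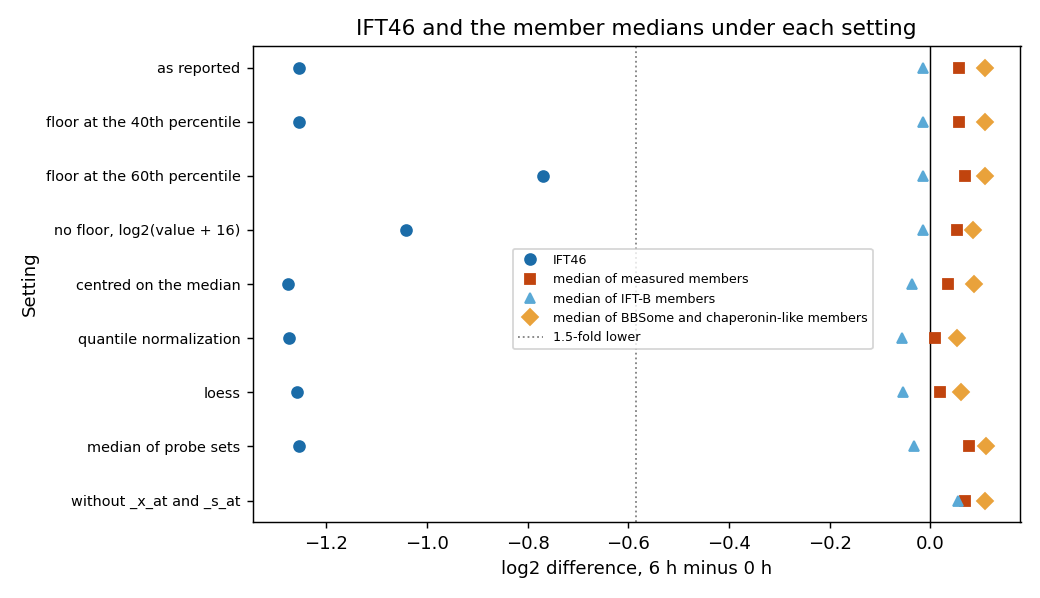
The log2 difference of IFT46 and the median over all measured members, IFT-B members, and BBSome with chaperonin-like members, 6 h minus 0 h, as reported and under 8 other settings, 1 array per time. IFT46 lies between -1.28 and -0.77 where it is measured and is not measured without _x_at and _s_at sets, and the median over all members stays between 0.008 and 0.08.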

How the data were processed

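RNA of 2 cultures was hybridised to 1 Affymetrix array each. The authors deposited a linear intensity for each probe set. MAS5 is named for it per the submitters' processing notes, while version, parameters and any scaling between the arrays are not given in the sources used here. This method subtracts local background and mismatch signal, so dim values are noisy. Probe sets were named through the platform annotation by Entrez identifier and the RefSeq table of GRCh38.p14, and those naming several genes (1801 of 54675) were left out. Values were raised to the floor and put on log2, with 6 h minus 0 h as the difference. Counts of genes use 1.5-fold, which equals 0.585 on log2. The members and lists were chosen with earlier results of these data known, and the motif strings after a wider set had been looked at. All 36 members are named, and of other cilium lists up to 3 measured genes with the largest absolute difference, with others (GLI1) named after their values were seen. Alternatives were floors at the 40th and 60th percentile, log2(value + 16) with no floor, median centring, quantile and loess (span 0.3) scaling, the median of a gene's sets, and leaving out _x_at and _s_at sets. The steps were tested on simulated data, with changes put only into genes well above the floor. That test does not cover a dim gene such as IFT46. Python 3.11.15, pandas 2.3.3 and statsmodels 0.14.6 were used.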

Additional observations from a re-analysis of the deposited data

How the results depend on the processing

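The number of arrays, 1 per time, limits every value here, and signal close to background limits IFT46. The IFT46 log2 difference (-1.25) was -0.77 with the floor at the 60th percentile, which by construction raises its 6 h value, and -1.04 with log2(value + 16), which by construction shrinks differences of dim sets. Leaving out _x_at and _s_at sets removes the only IFT46 set. There 0 members were at least 1.5-fold lower (1 as reported), 7 of 25 were lower by any amount (11 of 33 as reported), and the IFT-B median was 0.055 (-0.01 as reported), with fewer sets tested. Under the other 7 settings IFT46 was the 1 member at least 1.5-fold lower, and under all 8 there were 0 at least 1.5-fold higher. The medians of all members (0.008 to 0.08), of IFT-A with dynein-2 (0.09 to 0.16) and of BBSome with chaperonin-like genes (0.05 to 0.11) kept their sign under all 8. Of the other 32 members 24 kept their sign wherever they were measured and 8 did not. Over all genes, 23 at least 1.5-fold lower became 41 with the floor at the 40th percentile, 10 with it at the 60th and 11 with log2(value + 16). No paired analysis was possible because each time has 1 array.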
